A study of Sus scrofa with 10 samples.

Results

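EEA1, GCC2, USP8, ERGIC1 and CKAP4 are 5 genes of membrane traffic between the endoplasmic reticulum (ER), the Golgi apparatus and endosomes, out of 6765 genes named on the array. They were picked by name with the differences between the sorted fractions in these same data in view, so those differences are given as a description and carry no test. The genes were read on every probe set that the platform annotation gives to a single one of these symbols, 10 of 24123 probe sets in all. There were 2 for EEA1, 3 for ERGIC1, 3 for CKAP4, and a single probe set each for GCC2 and USP8. They are numbered within a gene by their mean signal over the 10 arrays, probe set 1 being the brightest.

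The cells were porcine fetal fibroblasts from Danish Landrace/Yorkshire x Duroc embryos at fetal day 24, taken from the body with the head removed, cultured in serum-containing medium on gelatin and then divided on magnetic beads with an antibody against SSEA-1. No treatment or genetic change is given for either fraction. The SSEA1+ fraction carried the SSEA-1 (Lewis X) carbohydrate at the surface and the SSEA1- fraction did not bind the antibody, and each gave 5 RNA samples with replicate numbers 1 to 5, with 1 Affymetrix porcine array per sample. The study describes them as 5 biological replicates of sorting of a fibroblast cell line; the labels do not say how many embryos stood behind it, so the spread between samples may be that of repeated cultures or sorts.

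A membrane carrier that reaches its target is first caught by a tether, a long coiled-coil protein or a complex, before the membranes fuse. EEA1 is such a tether on early endosomes, where it binds RAB5 and, through a FYVE zinc finger, the lipid phosphatidylinositol 3-phosphate. GCC2, also called GCC185, is a golgin of the trans-Golgi network that receives carriers from endosomes. USP8 is no tether but a deubiquitinase that removes ubiquitin from receptors and from the sorting machinery at endosomes. ERGIC1 is a membrane protein that cycles between the ER and the ER-Golgi intermediate compartment. CKAP4, also called CLIMP-63, is a membrane protein of ER sheets that links them to microtubules, and at the cell surface it acts as a receptor for the WNT antagonist DKK1. The 5 genes thus belong to different compartments, and the name tether applies to EEA1 and GCC2.

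The values are log2 signals that the authors made with RMA, and a difference of 1 is a 2-fold difference. All 10 probe sets lay above the background level of 0.352 on all 10 arrays. That level was not exceeded by 95% of the readings of the 23 controls for absent sequences, pooled over the arrays. Signals of different probe sets cannot be ranked against each other, since each hybridises with its own strength, so only differences are compared between them. Array medians ran from 1.15 to 1.19, and correlations between arrays of a fraction ran from 0.991 to 0.996. Precision is limited by having 5 arrays a fraction.

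The cultures carried fibroblast genes in both fractions. The 10 measured markers of 12 listed, each read from its brightest probe set, all had means above background, and their average signal ran from 6.71 to 6.91 in the SSEA1+ arrays and from 6.64 to 6.83 in the SSEA1- arrays. On these probe sets COL1A2 alone passed limma, higher by 1.19 in the SSEA1+ fraction, but its other probe set read 0.08 higher (adjusted p = 0.736). THY1 read 0.34 higher on its brightest probe set (adjusted p = 0.0564, or 0.0146 with the replicate number as a block) and 0.89 higher on another (adjusted p = 0.000329). COL3A1 was dim, at 0.72. Of 7 measured blood and macrophage markers, 5 lay at or below background in their mean over all 10 arrays, PTPRC and SPI1 among them, as did TEK, CDH5 and KDR of the endothelial markers. EPCAM of the epithelial markers averaged 0.44 in the SSEA1+ and 0.20 in the SSEA1- fraction, on either side of the background level, while HBB read 4.46 and KRT8 5.45. Means above background were found for 7 of 8 measured epithelial, 5 of 8 endothelial, 5 of 5 neural, 5 of 6 muscle and 4 of 4 pluripotent cell markers. Among them DES read 7.06, KLF4 6.77, CNN1 6.31, STMN2 6.19, ACTC1 5.78 and NCAM1 4.22, while MYOD1 at 0.37 and POU5F1 at 0.48 lay near background. The average signal of each of the epithelial, endothelial, blood, neural, muscle and pluripotent cell lists overlapped between fractions, and on the brightest probe sets ERG alone of their members passed, lower by 0.42 in the SSEA1+ fraction. The ERG call was kept in 3 of 10 fits that leave out an array, with adjusted p up to 0.102 in limma, and with the replicate block KRT19 passed as well, higher by 0.40 (adjusted p = 0.0272). In RNA of a whole fraction, fewer cells of a type and less RNA per cell cannot be told apart.

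The spike-in controls did stand apart. The poly-A controls, bacterial RNAs added to the sample before labelling, read relative to the hybridisation controls between -3.45 and -2.66 in the SSEA1+ arrays and between -4.32 and -3.80 in the SSEA1- arrays, a mean difference of 0.82 with no overlap. The hybridisation controls themselves also stood apart, at 6.75 to 7.17 in the SSEA1+ and 6.21 to 6.60 in the SSEA1- arrays, a mean difference of 0.42. Before that scaling the poly-A controls differed by 1.24 in their means. The part of these differences in the gene signals was not tested. SSEA1+ replicate 3 had the highest poly-A level of all arrays. The excess of 3′ over 5′ signal, a sign of RNA integrity and labelling, overlapped between fractions, at 1.12 to 1.30 against 1.18 to 1.38 for actin and 0.31 to 0.39 against 0.26 to 0.37 for GAPDH.

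The tethers EEA1 and GCC2 and the deubiquitinase USP8 read lower in the SSEA1+ fraction, and ERGIC1 read higher on all 3 of its probe sets. CKAP4 read higher on probe set 2, by the largest difference of the 10, and by much less, with overlap, on probe set 3, while its brightest probe set showed almost no difference. The fractions did not overlap on 7 of the 10 probe sets, 3 with lower and 4 with higher SSEA1+ signals. Among the 23935 probe sets that are not controls 6.30% did not overlap, 3.32% lower and 2.98% higher. The genes were chosen on this contrast, so nothing is read from their count.

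**Figure D1:**
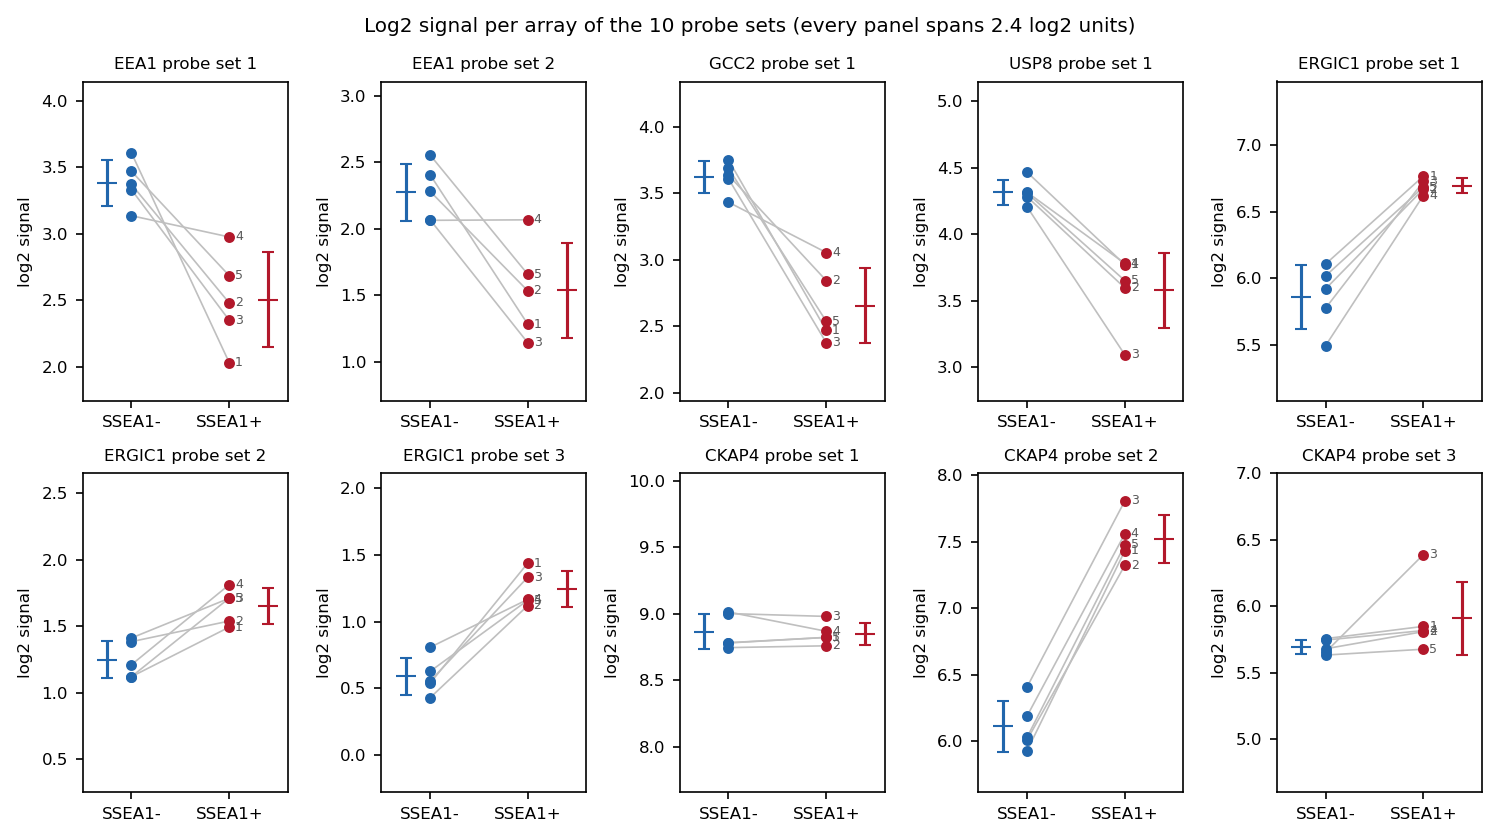
Log2 signal (y axis) of the 10 probe sets in the SSEA1- (blue) and SSEA1+ (red) fractions, 1 point per array, with grey lines joining arrays of the same replicate number (printed beside the SSEA1+ points) and mean ± SD bars for n = 5. Every panel spans the same height, so slopes can be compared; CKAP4 probe set 2 shifts by 1.41 and CKAP4 probe set 1 by -0.01.

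EEA1 was brightest on probe set 1. In the SSEA1+ fraction it read 2.03, 2.48, 2.35, 2.98 and 2.69 for replicates 1 to 5, and in the SSEA1- fraction 3.61, 3.37, 3.33, 3.14 and 3.47. All 5 SSEA1+ arrays lay below all 5 SSEA1- arrays, with replicate 4 of both fractions nearest to the other fraction and replicate 1 of both farthest from it. The means were 2.51 ± 0.35 and 3.38 ± 0.17 (SD, n = 5 each), a difference of -0.88 ± 0.15 (SE), or 1.84-fold lower in the SSEA1+ fraction. Within replicate numbers the difference ran from -1.58 to -0.16, so its size was far from uniform.

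The dimmer EEA1 probe set 2 showed a similar order of SSEA1+ arrays, with replicates 1 and 3 lowest and replicate 4 highest. It read 1.28, 1.53, 1.14, 2.07 and 1.66 in SSEA1+ replicates 1 to 5 and 2.41, 2.28, 2.07, 2.06 and 2.56 in the SSEA1- replicates. The fractions met at 2.07 and 2.06, again through replicate 4, in which the difference was 0.0036 and of the opposite sign to the other pairs. The means differed by -0.74 ± 0.16 (SE), or 1.67-fold.

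The Golgi tether GCC2 read 2.47, 2.84, 2.38, 3.05 and 2.54 in SSEA1+ replicates 1 to 5, and 3.75, 3.64, 3.61, 3.43 and 3.69 in the SSEA1- replicates. The SSEA1- arrays kept close together, with an SD of 0.12 against 0.28 in the SSEA1+ fraction, and the nearest arrays of the 2 fractions were 0.38 apart. The difference was -0.97 ± 0.12 (SE), or 1.95-fold, and within replicate numbers it ran from -1.28 to -0.38. Replicate 4 gave the smallest difference here as it did for EEA1, and the same held for USP8.

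USP8 read 3.77, 3.60, 3.09, 3.78 and 3.65 in SSEA1+ replicates 1 to 5, and 4.47, 4.28, 4.21, 4.31 and 4.31 in the SSEA1- replicates. SSEA1+ replicate 3 stood below the other SSEA1+ arrays, whose lowest was 3.60, and without it the difference of -0.74 ± 0.12 (SE) became -0.62. The fractions were 0.43 apart at their nearest arrays, and all 5 replicate numbers gave differences between -1.11 and -0.53.

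ERGIC1 probe set 1 read 6.77, 6.67, 6.73, 6.62 and 6.69 in SSEA1+ replicates 1 to 5, and 6.11, 5.92, 5.78, 5.49 and 6.02 in the SSEA1- replicates. Here the SSEA1+ arrays were the uniform ones, with an SD of 0.06 against 0.24, and SSEA1- replicate 4 was the lowest array. The difference was 0.83 ± 0.10 (SE), or 1.78-fold higher in the SSEA1+ fraction, and 0.66 to 1.13 within replicate numbers. Replicate 4, which gave the smallest differences for EEA1 and GCC2, gave the largest for this probe set.

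The other ERGIC1 probe sets were dim, and both read higher in the SSEA1+ fraction without overlap. Probe set 2 ran from 1.49 to 1.81 against 1.12 to 1.41, with a difference of 0.40 ± 0.09 (SE), or 1.32-fold. Probe set 3 ran from 1.12 to 1.44 against 0.43 to 0.81, with a difference of 0.65 ± 0.09 (SE), or 1.57-fold. The lowest SSEA1- array of probe set 3 lay just over background, where differences are the least certain.

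**Figure D2:**
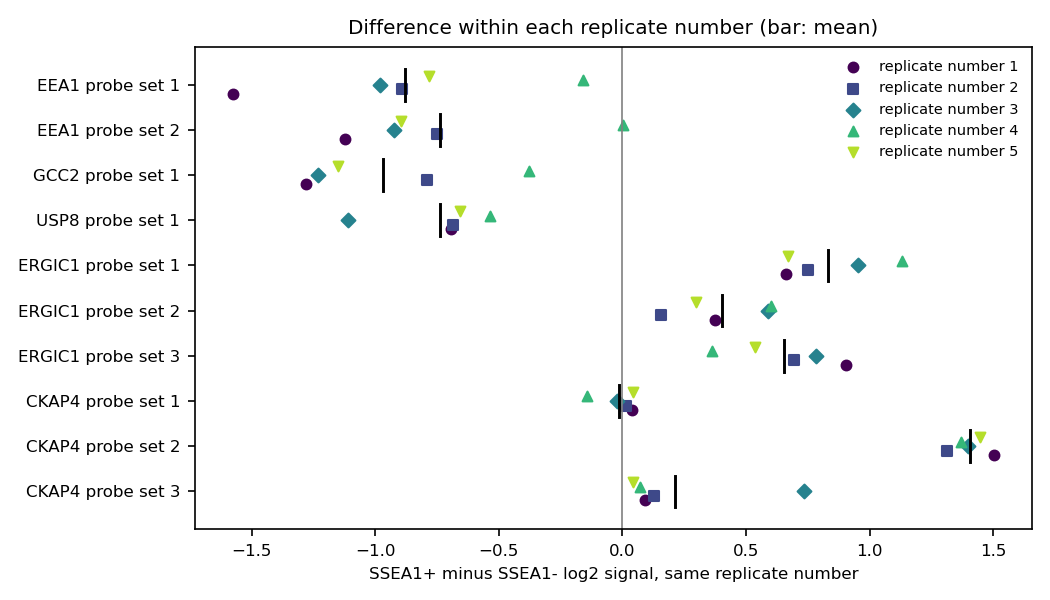
SSEA1+ minus SSEA1- log2 difference (x axis) within each replicate number for the 10 probe sets (y axis), 1 symbol per replicate number, with the mean as a black bar. Replicate 4 lies nearest to 0 for EEA1 and GCC2 and farthest from it for ERGIC1 probe set 1, and the 5 differences of CKAP4 probe set 2 lie within 1.31 to 1.50.

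CKAP4 gave different answers on its 3 probe sets. Probe set 2 read 7.43, 7.32, 7.81, 7.56 and 7.48 in SSEA1+ replicates 1 to 5, and 5.93, 6.01, 6.41, 6.19 and 6.03 in the SSEA1- replicates. The fractions were 0.91 apart at their nearest arrays, and the difference of 1.41 ± 0.11 (SE), or 2.65-fold, was alike in all 5 replicate numbers, from 1.31 to 1.50.

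Probe set 1, the brightest, read 8.82, 8.76, 8.98, 8.87 and 8.82 in SSEA1+ replicates 1 to 5, and 8.78, 8.75, 9.00, 9.01 and 8.78 in the SSEA1- replicates. The fractions overlapped over nearly their whole range, and the difference was -0.01 ± 0.08 (SE). It was positive in 3 replicate numbers and negative in the other 2.

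Probe set 3 read 5.85, 5.81, 6.39, 5.82 and 5.68 in SSEA1+ replicates 1 to 5, and 5.76, 5.68, 5.65, 5.75 and 5.63 in the SSEA1- replicates. Its difference of 0.21 ± 0.11 (SE) rested mostly on SSEA1+ replicate 3, and without that array it was 0.09. All 5 replicate numbers gave a positive difference, from 0.04 to 0.73. The highest and lowest differences of the CKAP4 probe sets were 1.42 apart on the log2 scale. Among the 1706 genes with several probe sets whose means lay above background, the median of this spread was 0.15, and 3 genes with CKAP4 among them, or 0.176%, reached 1.42. For ERGIC1 the spread was 0.43, which 9.61% of these genes reached, and for EEA1 0.14, which 53.2% reached. These spreads use the contrast on which the genes were chosen. A gene with a large difference on 1 probe set tends to a large spread, so nothing is read from these shares. The probe sequences were not used here, so which parts of the CKAP4 transcript or which other transcripts each probe set reads was not tested.

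The arrays of a fraction also differ among themselves, and these deviations from the fraction mean are independent of the contrast on which the genes were chosen. They were compared over the 10 arrays for 17 pairs of probe sets, 10 between the brightest probe sets of different genes and 7 between probe sets of a gene, with exact two-sided permutation tests over the 14400 orders of arrays within fractions. The test ignores the replicate numbers, which the arrays of both fractions share. Same-numbered arrays correlated in their deviations at 0.122 to 0.580, so the p-values of this test may be too small.

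CKAP4 probe sets 1 and 2, which disagreed on the difference between fractions, moved together within them when the replicate numbers were ignored. Their deviations correlated at r = 0.895 (exact permutation p = 0.00167, adjusted p = 0.0283 over the 17 pairs) and rho = 0.855 (exact permutation p = 0.00764, adjusted p = 0.0649). Leaving out the 2 arrays farthest from the median of probe set 1 gave r = 0.946. Here and below the 2 farthest arrays were chosen by their values over both fractions, and not by their deviations within a fraction. Such values of r are thus no check against outlying deviations. In both fractions replicate 3 was the highest array, or next to it, on these probe sets. Leaving out an array kept r between 0.864 and 0.970. With replicate means removed as well, r was 0.434 (exact permutation p = 0.525). No pair passed the adjustment without SSEA1+ replicate 2, 3, 4 or 5 or SSEA1- replicate 5, and 2 pairs passed without SSEA1+ replicate 1. CKAP4 probe set 3 correlated with probe set 1 at r = 0.469 (exact permutation p = 0.0947) and rho = 0.321 (exact permutation p = 0.259), and with probe set 2 at r = 0.527 (exact permutation p = 0.169) and rho = 0.236 (exact permutation p = 0.496). The adjusted p-values of these pairs were 0.293 and 0.359, and without the 2 farthest arrays r was 0.837 and -0.03.

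**Figure D3:**
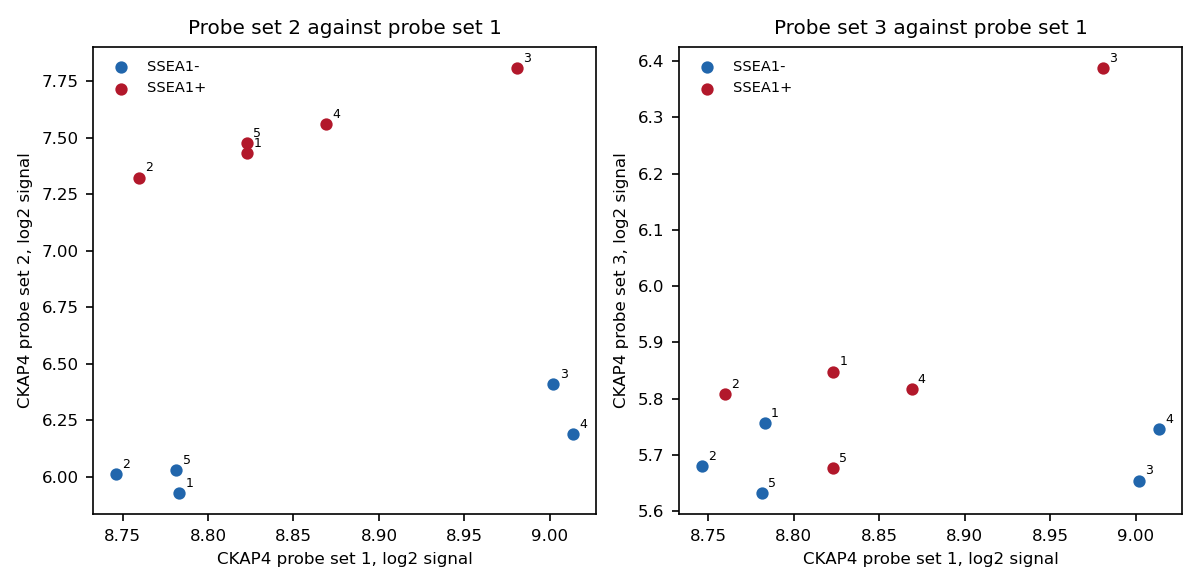
Log2 signal of CKAP4 probe set 2 (left panel, y axis) and probe set 3 (right panel, y axis) against probe set 1 (x axis), 1 point per array with its replicate number, SSEA1- in blue and SSEA1+ in red. On the left the fractions form separate bands, at 7.32 to 7.81 and 5.93 to 6.41, and within each band the arrays that are high on probe set 1 tend to be high on probe set 2; on the right SSEA1+ replicate 3 alone stands apart at 6.39.

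The EEA1 probe sets also moved together within fractions, at r = 0.862 (exact permutation p = 0.00840, adjusted p = 0.0714) and rho = 0.927 (exact permutation p = 0.00111, adjusted p = 0.0189). Without the 2 arrays farthest in signal, SSEA1+ replicates 1 and 3, r was 0.876. SSEA1+ replicate 4, which deviated more from its fraction mean than replicate 3, was kept there. Leaving out an array kept r between 0.741 and 0.908, the lowest without SSEA1+ replicate 4. The adjusted value for r missed the threshold of 0.05 that the value for rho passed. Between genes, EEA1 and GCC2 had the highest correlation, at r = 0.772 (exact permutation p = 0.0351, adjusted p = 0.199) and rho = 0.745 (exact permutation p = 0.0408, adjusted p = 0.231), or r = 0.671 without the 2 farthest arrays. Leaving out an array gave r between 0.564 and 0.876 for this pair, again the lowest without SSEA1+ replicate 4. The pair did not pass the adjustment.

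The remaining pairs did not pass either. GCC2 and USP8 gave r = 0.532 (exact permutation p = 0.264) and rho = 0.455 (exact permutation p = 0.233), with r = 0.488 without the 2 farthest arrays. EEA1 and USP8 gave r = 0.279 (exact permutation p = 0.558) and rho = 0.382 (exact permutation p = 0.318), and that pair rested on few arrays, since r was 0.749 without SSEA1+ replicates 1 and 3. ERGIC1 and CKAP4 gave r = -0.676 (exact permutation p = 0.0918) and rho = -0.612 (exact permutation p = 0.159), and this rested on SSEA1- replicates 3 and 4, without which r was 0.241. The adjusted p-values of these 3 pairs for r were 0.498, 0.632 and 0.293, in the order given.

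The ERGIC1 probe sets, which all read higher in the SSEA1+ fraction, showed no common movement within fractions that the test detected. Probe set 1 gave r = 0.0431 with probe set 2 (exact permutation p = 0.933, adjusted p = 0.933) and rho = 0.0182 (exact permutation p = 0.967). With probe set 3 it gave r = -0.346 (exact permutation p = 0.393, adjusted p = 0.540) and rho = -0.0667 (exact permutation p = 0.891). Both values turned on SSEA1- replicates 3 and 4, without which r was -0.714 and 0.702.

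With replicate means removed as well, 5 independent differences are left, which allow 120 orders and no exact permutation p under 0.00833, or 0.142 for a lone pair adjusted over 17. A lone pair thus could not pass, and the values are given as a description. CKAP4 probe sets 1 and 2 then gave r = 0.434 and the EEA1 probe sets 0.915. ERGIC1 and CKAP4 gave -0.959, the strongest of the 17. ERGIC1 probe sets 1 and 2 gave 0.794, far from the value above, and probe sets 1 and 3 gave -0.567.

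By the deviations from fraction means alone, the named genes whose deviations were most like those of a member were picked from 5618 genes above background, over the 10 arrays. As the highest of so many they carry no p. For EEA1 they were CCDC93, a subunit of an endosomal recycling complex, at r = 0.939 (rho = 0.903), the RNA-processing ubiquitin ligase RBBP6 at 0.930 (rho = 0.952) and KTN1, the ER membrane protein kinectin, at 0.929 (rho = 0.939). For GCC2 they were the cohesin acetyltransferase ESCO1 at 0.921 (rho = 0.964), BROX, a Bro1-domain protein, at 0.902 (rho = 0.915) and the kallikrein KLK1 at 0.896 (rho = 0.830). For USP8 they were the transcriptional inhibitor ID4 at 0.947 (rho = 0.903), TDRP at 0.927 (rho = 0.903) and FAM111B at 0.925 (rho = 0.818). TDRP fell to r = 0.583 without the 2 farthest arrays.

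For ERGIC1 they were the Polycomb protein PHC1 at r = 0.961 (rho = 0.952), the receptor GPRC5C at 0.960 (rho = 0.939) and the Mediator subunit MED14 at 0.942 (rho = 0.721). For CKAP4 they were the DNA repair nuclease MRE11 at 0.983 (rho = 0.939), the cell cycle gene TCF19 at 0.980 (rho = 0.964) and MXD3, of the MYC/MAX network, at 0.960 (rho = 0.964). Without the 2 farthest arrays the other genes named here gave r between 0.703 and 0.985. Of the 15, ESCO1 differed between fractions in limma, by -0.83 ± 0.11 (SE, adjusted p = 0.00156), and the other 14 did not pass.

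Deviations within fractions were also set against the poly-A level, for each of the 10 probe sets, again with the replicate numbers ignored. CKAP4 probe set 3 followed it most closely, at r = 0.845 (exact permutation p = 0.00229, adjusted p = 0.0229 over 10 probe sets) and rho = 0.758 (exact permutation p = 0.00389), with r = 0.605 without SSEA1+ replicate 3 and SSEA1- replicate 5. EEA1 probe set 2 gave r = -0.714 (exact permutation p = 0.0411, adjusted p = 0.172) and rho = -0.673 (exact permutation p = 0.0415), and -0.419 without those arrays. None of the other 8 had an unadjusted p under 0.05 for r in the exact permutation test. Among them r was -0.552 for GCC2, -0.580 for USP8, -0.149 for ERGIC1 probe set 1 and 0.577 for CKAP4 probe set 2, and the value for USP8 turned to 0.405 without SSEA1+ replicate 3 and SSEA1- replicate 5.

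With the poly-A level as a covariate in limma, the differences of EEA1, GCC2 and USP8 shrank and that of ERGIC1 probe set 1 did not. EEA1 probe set 1 read -0.53 ± 0.26 and probe set 2 -0.13 ± 0.23, GCC2 -0.62 ± 0.20 and USP8 -0.39 ± 0.20 (SE). ERGIC1 probe sets 1 to 3 read 0.91 ± 0.20, 0.57 ± 0.16 and 0.44 ± 0.16, and CKAP4 probe set 2 read 1.10 ± 0.18 (SE). With the replicate number beside the covariate, EEA1 probe set 2 read 0.01 ± 0.37 and GCC2 -0.29 ± 0.33, while ERGIC1 probe set 1 read 0.96 ± 0.27 and CKAP4 probe set 2 1.42 ± 0.21 (SE). EEA1 probe set 1 read -0.35 ± 0.47 and USP8 -0.20 ± 0.22 in that fit. ERGIC1 probe set 2 kept its size, at 0.44 ± 0.27 against 0.40 ± 0.09 (SE) with the fractions alone, but with a larger SE. ERGIC1 probe set 3 shrank to 0.35 ± 0.26 from 0.65 ± 0.09 (SE). CKAP4 probe set 3 read -0.42 ± 0.26 (SE). No SSEA1+ array had a poly-A level as low as any SSEA1- array, so the poly-A level and the fraction cannot be told apart between fractions, and these values extrapolate.

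**Figure D4:**
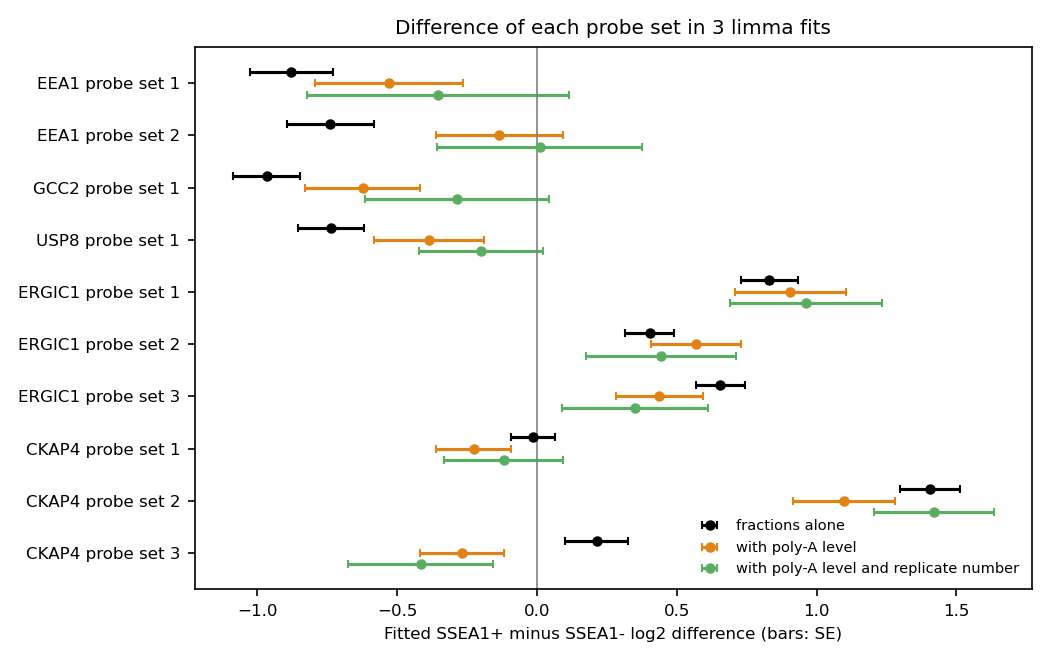
Fitted SSEA1+ minus SSEA1- log2 difference (x axis) of the 10 probe sets (y axis) from limma with the fractions alone (black), with the poly-A spike-in level as covariate (orange), and with that level and the replicate number (green), bars showing the SE. EEA1 probe set 2 moves from -0.74 to 0.01 and CKAP4 probe set 3 changes sign to -0.42, while ERGIC1 probe set 1 stays at 0.83 to 0.96.

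The pathway neighbours of the 5 genes were read from 5 lists, which leave out the genes themselves, by limma over all probe sets with a threshold of 0.05 on the Benjamini-Hochberg adjusted p. Each gene was read from its brightest probe set. Over all 6765 genes 7.39% passed, 217 (3.21%) higher and 283 (4.18%) lower in the SSEA1+ fraction, or 273 higher and 219 lower after repeated quantile normalization and 273 and 224 after cyclic loess. The median difference over all genes was -0.01. With the replicate number as a block 965 genes passed, 382 higher and 583 lower. With the mean over the probe sets of a gene 610 passed, 260 higher and 350 lower. Without any of SSEA1+ replicates 1 and 5 and SSEA1- replicates 1, 3 and 5 the count lay between 268 and 333.

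Of the early endosome genes around RAB5 and EEA1, 24 of 48 were measured, 3 fell and none rose, or 12.5%, with a median of -0.05. The 3 that fell, WDFY1, WDFY2 and ZFYVE16 (endofin), carry a FYVE zinc finger as EEA1 does, a feature noticed after their values were seen. WDFY1 ran from 1.73 to 2.67, median 2.21, in the SSEA1+ arrays and from 2.71 to 3.22, median 2.99, in the SSEA1- arrays, and fell by 0.71 ± 0.16 (SE, adjusted p = 0.0211). WDFY2 fell by 0.61 ± 0.11 (SE, adjusted p = 0.00662) and ZFYVE16 by 0.45 ± 0.07 (SE, adjusted p = 0.00415), both without overlap.

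The other FYVE genes measured on this list, the only ones looked at, did not pass without the replicate block. ANKFY1 read 0.29 higher (adjusted p = 0.113) and PIKFYVE, a lipid kinase, had a difference of -0.35 (adjusted p = 0.203). The lipid kinase PIK3C3, which makes the lipid EEA1 binds, had a difference of -0.30 (adjusted p = 0.197). With the replicate block 2 genes of the list rose and 4 fell, and 1 rose and 3 fell after repeated quantile normalization, with the filter on level or with the mean over probe sets. In the limma fit with the block ANKFY1 (adjusted p = 0.0478) and RIN3 (adjusted p = 0.0187) rose and PIK3C3 fell (adjusted p = 0.0375). The FYVE gene ANKFY1 thus passed there in the opposite direction to the 3 that fell. CCZ1 read -0.39 on its other probe set (limma adjusted p = 0.0271, without the block). A second probe set of ZFYVE16 read -0.26 (adjusted p = 0.117). The WDFY1 call was lost without SSEA1+ replicate 5, SSEA1- replicate 1 or SSEA1- replicate 3, with adjusted p up to 0.0575 in limma.

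Of the golgins and Golgi tethering genes 28 of 58 were measured, 2 rose and 3 fell, or 17.9%, with a median of -0.01. TMEM87A, a Golgi membrane protein, ran from 3.99 to 4.28, median 4.20, in the SSEA1+ arrays and from 4.76 to 4.86, median 4.80, in the SSEA1- arrays, and fell by 0.62 ± 0.07 (SE, adjusted p = 0.000391). Its other probe set fell as well, by 0.43 (adjusted p = 0.0303). The golgin GOLGA5 fell by 0.52 ± 0.10 (SE, adjusted p = 0.00836) and FAM91A1, which works with golgin-bound carriers, by 0.47 ± 0.08 (SE, adjusted p = 0.00662).

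RAB9A, a GTPase of endosome-to-Golgi transport, rose by 0.41 ± 0.07 (SE, adjusted p = 0.00547), and the cis-Golgi golgin GOLGA2 (GM130) by 0.35 ± 0.09 (SE, adjusted p = 0.0362). With all probe sets of a gene averaged, none of the list rose and 2 fell. Other probe sets of GOLGA5 and RAB9A, both dim, read 0.01 and -0.09, and those of GOLGA2 read 0.17, -0.16 and 0.04. The GOLGA2 call was lost without any of SSEA1+ replicates 1, 2, 4 and 5 and SSEA1- replicates 3, 4 and 5, with adjusted p up to 0.0908 in limma. The giant golgin GOLGB1 had a difference of -0.62 that did not pass (adjusted p = 0.0846), and the mannose 6-phosphate receptors IGF2R and M6PR, cargo of this route, read 0.25 and 0.16 higher without passing.

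Of the genes of the ESCRT machinery, which sorts ubiquitinated receptors at endosomes, and other partners of USP8, 36 of 60 were measured, 2 rose and none fell, or 5.56%, with a median of 0.04. The ubiquitin ligase CBLB, which marks receptors for this sorting, ran from 2.94 to 3.26, median 3.08, against 2.32 to 2.82, median 2.65, and rose by 0.47 ± 0.09 (SE, adjusted p = 0.0128). YWHAB, a 14-3-3 protein, rose by 0.34 ± 0.07 (SE, adjusted p = 0.0135). With the replicate block 4 rose and none fell. The deubiquitinase USP9X, with 0.29 (adjusted p = 0.0725), and the ESCRT ATPase VPS4A, with 0.31 (adjusted p = 0.0798), did not pass.

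Of the genes of ER exit and the ER-Golgi intermediate compartment 49 of 70 were measured, 1 rose and 3 fell, or 8.16%, with a median of -0.05. The split depended on the processing: 2 rose and 2 fell after repeated quantile normalization or cyclic loess, 3 rose and 2 fell with trend and robust variance, and 3 rose and 7 fell with the mean over probe sets. KDELR1, a receptor that returns ER proteins from the Golgi, ran from 6.54 to 6.68, median 6.57, against 6.02 to 6.18, median 6.14, and rose by 0.48 ± 0.06 (SE, adjusted p = 0.00113). MCFD2, the partner of the cargo receptor LMAN1, fell by 0.38 ± 0.08 (SE, adjusted p = 0.0119), the Golgi SNARE GOSR2 by 0.34 ± 0.09 (SE, adjusted p = 0.0364) and the ER cargo protein BCAP31 by 0.33 ± 0.08 (SE, adjusted p = 0.0338). ERGIC2, the closest relative of ERGIC1 on the list that was measured, had a difference of -0.09 (adjusted p = 0.576). Its other probe set read -0.29 (adjusted p = 0.136). KDELR2 and TMED10 did not pass on their brightest probe sets. On another probe set KDELR2 read 0.37 (limma adjusted p = 0.017) and TMED10 -0.29 (limma adjusted p = 0.0207).

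With the replicate block 3 genes of this list rose and 5 fell. Without SSEA1+ replicate 5 or SSEA1- replicate 1, 3 or 5, 2 genes passed in all, and without SSEA1- replicate 2, 7 passed. That of GOSR2 was lost in 7 of 10 fits that leave out an array, all but those without SSEA1+ replicate 1, SSEA1+ replicate 4 or SSEA1- replicate 2, with adjusted p up to 0.0916 in limma. That of BCAP31 was lost in 8 of 10, all but those without SSEA1+ replicate 3 or SSEA1- replicate 2, with adjusted p up to 0.0903.

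Of the genes of ER membrane shape and CKAP4 partners 43 of 53 were measured, 3 rose and 1 fell, or 9.30%, with a median of -0.01. VAPB, an ER protein of membrane contact sites, ran from 3.68 to 4.06, median 3.79, against 2.93 to 3.31, median 3.19, and rose by 0.64 ± 0.09 (SE, adjusted p = 0.00198). DICER1, the RNase of small RNA processing, rose by 0.49 ± 0.12 (SE, adjusted p = 0.0361) and TRAM2, of the ER translocon, by 0.35 ± 0.10 (SE, adjusted p = 0.0494). ATL2, a GTPase that fuses ER tubules, fell by 0.45 ± 0.09 (SE, adjusted p = 0.0135).

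With the replicate block 4 genes of this list rose and 3 fell, and without SSEA1+ replicate 1, 3 or 5 or SSEA1- replicate 3 or 4, 2 genes passed in all. DICER1 read -0.06 on its other, dim probe set, and its call was lost without any of SSEA1+ replicates 1, 3, 4 and 5 and SSEA1- replicates 3 and 4, with adjusted p up to 0.0908 in limma. That of TRAM2 was lost in 8 of 10 fits, all but those without SSEA1- replicate 1 or 2, with adjusted p up to 0.118. The ER sheet proteins often named with CKAP4 did not pass: KTN1 had a difference of -0.37 (adjusted p = 0.0854), RRBP1 of 0.07 and LRRC59 of -0.09. With the poly-A level as a covariate no gene of the 5 lists passed limma, while 4 to 8 genes of each had an unadjusted p under 0.05. Over all 6765 genes 987 had such a p in that fit, so nothing is read from the list counts. The part of the poly-A level in the list values was not tested.

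**Figure D5:**
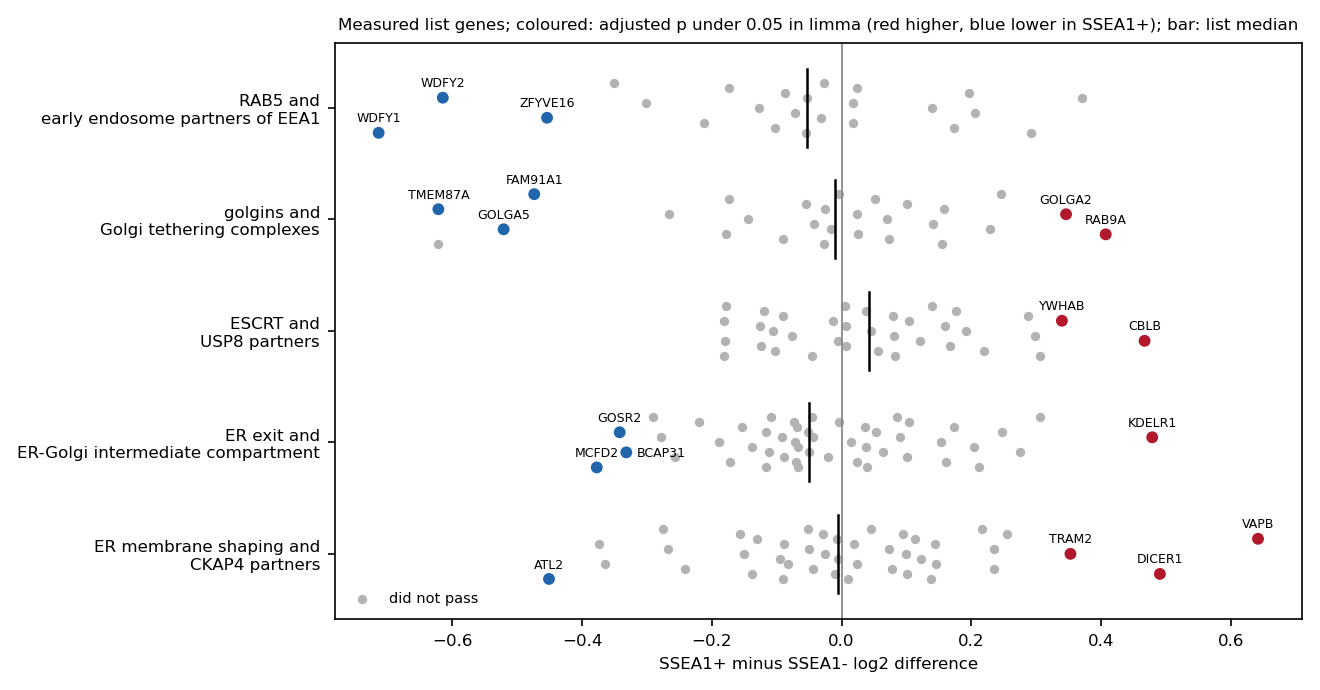
SSEA1+ minus SSEA1- log2 difference (x axis) of every measured gene of the 5 pathway lists (y axis), each gene as a point from its brightest probe set, coloured where the limma adjusted p was under 0.05, with the list median as a bar. The medians lie between -0.05 and 0.04, and the coloured genes lie on both sides of 0 in 3 of the lists.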

How the data were processed

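RNA of 5 SSEA1+ and 5 SSEA1- fractions was hybridised to Affymetrix porcine arrays. The authors deposited log2 values; the submitters' processing notes name RMA, with no version and no setting. No scanner files were used. Of 24123 probe sets, 10099 had 1 gene symbol and 198 several; 9989 were matched by Entrez identifier to RefSeq names, which changed 0 symbols, and 188 are controls. A gene was read from its brightest probe set. limma 3.58.1 (R 4.3.3) compared the fractions over all probe sets, with no block and Benjamini-Hochberg adjustment over all of them at 0.05, and was tested on simulated data. The members and gene lists were chosen with earlier results of these data known. Named list genes were all that passed where 5 or fewer did; the 3 genes most like each member were taken by r.

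Same-numbered arrays of the fractions correlated in their deviations from the fraction means at 0.212, 0.580, 0.353, 0.122 and 0.235. The numbers were therefore used as pairs in the described differences within replicate numbers and as a block in alternative fits. The limma calls without a block and the exact permutation tests did not pair the arrays. SSEA1+ replicate 4 correlated better with SSEA1- replicate 5, at 0.314. Alternatives were the replicate block, the poly-A level as covariate with and without it, further scaling, a filter on level, another variance model, the mean over probe sets, and each array left out.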

Additional observations from a re-analysis of the deposited data

Results flagged for a closer look

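Within a fraction, 4 named values stood far from the other 4 arrays by Dixon's test, among 56 groups examined; chance gives about 1 in 20. USP8 read 3.09 in SSEA1+ replicate 3 against 3.60 to 3.78, and its difference was -0.62 without that array. CKAP4 probe set 3 read 6.39 in SSEA1+ replicate 3 against 5.68 to 5.85, with a difference of 0.09 without it. That array also had the highest poly-A level, and the part of that level in both values was not tested. WDFY2 read 2.74 in SSEA1- replicate 3 against 2.98 to 3.04, and without it the difference was -0.67 (limma adjusted p = 0.00979). FAM91A1 read 4.79 in SSEA1+ replicate 2 against 4.43 to 4.52, and without it the difference was -0.54 (limma adjusted p = 0.00317).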

How the results depend on the processing

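With the replicate block limma called 2832 probe sets in place of 1495, 965 genes in place of 500, and 6 early endosome (2 higher, 4 lower), 4 ESCRT, 8 ER exit and 7 ER shaping genes. With the poly-A covariate it called 12 probe sets and 6 genes, and 0 genes of each list. At an unadjusted p under 0.05 the lists gave 6, 8, 4, 4 and 8 genes, in the order of the report. All 6765 genes gave 987. With covariate and block together it called 4 probe sets, 1 gene and 0 of each list (4, 4, 8, 6 and 7 unadjusted, against 770 of all 6765 genes). EEA1 probe set 2 then turned to 0.0095, and CKAP4 probe set 3 turned to -0.27 with the covariate and -0.42 with both. The mean over probe sets gave 2 golgin (0 higher, 2 lower) and 10 ER exit genes (3 higher, 7 lower). Over all 6765 genes it gave 610 (260 higher, 350 lower). Among 17 pairs of probe sets, 1 passed within fractions in the exact test that ignores the replicate numbers. With replicate means removed 0 passed, where a lone pair could not pass. Leaving out an array gave 836 (without SSEA1- replicate 3 or 5; 850 and 853 without SSEA1+ replicate 1 and 5) to 1834 probe sets (without SSEA1- replicate 2), 268 (without SSEA1+ replicate 5 or SSEA1- replicate 3) to 663 genes (without SSEA1- replicate 2), 2 to 4 early endosome, 4 to 5 golgin, 2 to 3 ESCRT, 2 to 7 ER exit and 2 to 4 ER shaping genes, and 0 to 2 pairs. The cause of these shifts was not tested. The other scalings, the filter and the variance model kept each total within 1.5 times but not each direction, as given for the ER exit and early endosome genes, and no leave-out turned the sign of a member's difference other than that of CKAP4 probe set 1, which ran from -0.05 to 0.02.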
